A study of Saccharomyces cerevisiae with 6 samples.

Results

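Domain II of 25S ribosomal RNA, the RNA of the large subunit in the yeast Saccharomyces cerevisiae, was examined nucleotide by nucleotide within the 35S pre-rRNA, the primary transcript from which the mature rRNAs are cut. It was defined by position, as nucleotides 651 to 1450 of 25S, which are nucleotides 3902 to 4701 of the transcript. Earlier results of these data were known by then. It holds 800 of the 6858 nucleotides. Positions below number 25S from 1 at its 5′ end. Pre-ribosomal particles were purified through TAP-tagged Mrd1, a protein that binds the early pre-rRNA, and probed with 1M7. Both strains derive from BY4741. The first carries mrd1-deltaRDB5-TAP, an Mrd1 altered in an RNA-binding domain, and pGAL-HA-MRD1, an MRD1 under the galactose promoter. It is called the mutant here and has 2 libraries treated with the solvent DMSO and 2 treated with 1M7. The second strain carries GAL::3HA-ERB1, by which Erb1 can be switched off through the galactose promoter, together with an unaltered MRD1-TAP. It is called the Erb1-depleted strain, its values are given as those under Erb1 depletion, and it has 2 libraries treated with 1M7, with no DMSO library labelled for it. Cells were grown with dextrose or with galactose and raffinose, and the labels do not tie a medium or a time of depletion to a library. There is no strain that lacks both changes, so what the Mrd1 allele does and what loss of Erb1 does cannot be told apart.

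Large-subunit rRNA folds into domains that come together stepwise in the nucleolus, and Erb1 is an assembly factor of the nucleolar large-subunit precursors. In the mature subunit domain II carries the A-site finger, a long helix that reaches over the A-site tRNA toward the small subunit. It also carries the GTPase-associated centre, a pair of hairpins that bind protein uL11 and touch the elongation factors. The reagent 1M7 reacts with the 2′-hydroxyl of nucleotides that move freely, and the bulky adduct halts reverse transcription, so paired or tightly held nucleotides give low scores and loops give high ones.

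The stretches that carry the results are printed as DNA letters, 5′ to 3′, as in the deposited sheet. In the first 6, capitals mark nucleotides called more reactive under Erb1 depletion.
25S 815 to 840: gaactatgccTGAATAgggtgaagcc
25S 900 to 925: gGGtATAgggGCGAAAgactaatcga
25S 1167 to 1190: ttaaggtgccGGAAtacacgctca
25S 1231 to 1254: acggtggccaTGGAagtcggaatc
25S 1289 to 1312: gaactagcccTGAAaatggatggc
GTPase-associated centre, 25S 1200 to 1300: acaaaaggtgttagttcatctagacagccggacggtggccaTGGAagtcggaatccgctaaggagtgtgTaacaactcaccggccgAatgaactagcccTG
In the span taken for the A-site finger, 25S 1004 to 1124, capitals mark uridines that are pseudouridine in mature 25S.
A-site finger: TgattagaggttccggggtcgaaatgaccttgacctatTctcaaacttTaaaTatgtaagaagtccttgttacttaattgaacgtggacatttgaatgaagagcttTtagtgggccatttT

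Every nucleotide of domain II had a value in both strains. The sheet pools the libraries of a strain into 1 value per nucleotide and gives no depth. With no spread between replicates to set a difference against, all values are descriptions without a test. A nucleotide was counted as modified where the deposited posterior probability of the BUM_HMM model was at least 0.95. In domain II 209 nucleotides were modified in the mutant (26.1%, Wilson 95% interval 23.2 to 29.3) and 216 under Erb1 depletion (27%, 24 to 30.2), against 18.5% and 21.1% over the whole transcript. The intervals treat nucleotides as independent and leave out the spread between libraries. The rest of 25S held 17.1% and 19.2%. Both strains shared 166 modified nucleotides, while 43 were modified in the mutant only, 50 under Erb1 depletion only and 541 in neither. The lists of the strains could share control libraries, which the sources used here do not settle.

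Mean reactivity did not stand as far above the rest as the share of modified nucleotides did. The normalized reactivity score averaged 0.212 in the mutant and 0.245 under Erb1 depletion in domain II. The rest of 25S averaged 0.192 and 0.218, and the whole transcript 0.248 and 0.256. In domain II 443 nucleotides of the mutant and 396 under Erb1 depletion had a normalized score of 0. Scores in the middle range were called modified more often in domain II than elsewhere in 25S. Of nucleotides with a normalized score from 0.5 to below 1, 105 of 110 were modified in the mutant (95.5%) and 126 of 139 under Erb1 depletion (90.6%), against 73% and 70.5% in the rest of 25S. Of those above 0 and below 0.5, 70 of 213 (32.9%) and 55 of 230 (23.9%) were modified, against 17.4% and 21.4%. The posterior thus counted more of the middling scores here, and its share does not measure reactivity alone.

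**Figure D1:**
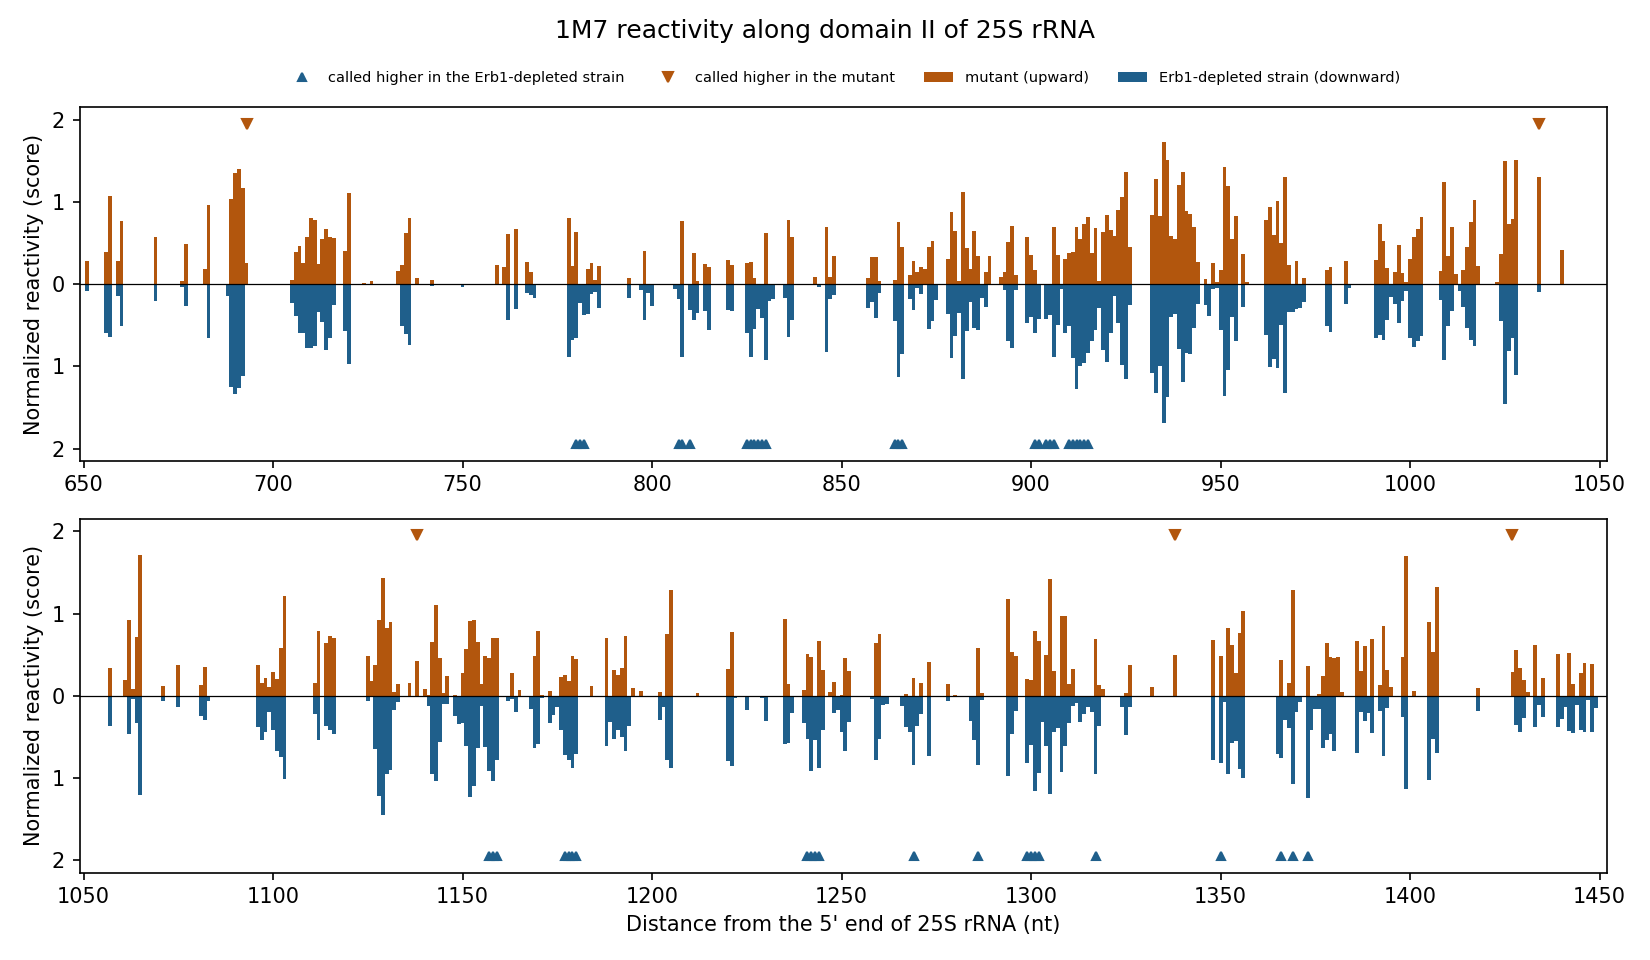
Normalized reactivity score (no unit) of each nucleotide of 25S 651 to 1450 in the mutant (upward) and under Erb1 depletion (downward), with triangles at called differences. The profiles share their peaks, with U935 highest in both strains at 1.73 and 1.69, and their long stretches at or near 0.

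Modified nucleotides were concentrated in the window from 851 to 950, where 55 of 100 nucleotides were modified in the mutant and 49 under Erb1 depletion. The other 7 windows of 100 nt held 17 to 29 modified nucleotides in the mutant and 18 to 29 under Erb1 depletion. Without that window 154 of 700 nucleotides were modified in the mutant (22%) and 167 under Erb1 depletion (23.9%), so both shares stayed above those of the rest of 25S. The same window had the highest mean normalized score of the 8, 0.373 in the mutant and 0.428 under Erb1 depletion. The lowest mean in both strains was that of 751 to 850, at 0.109 and 0.162.

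**Figure D2:**
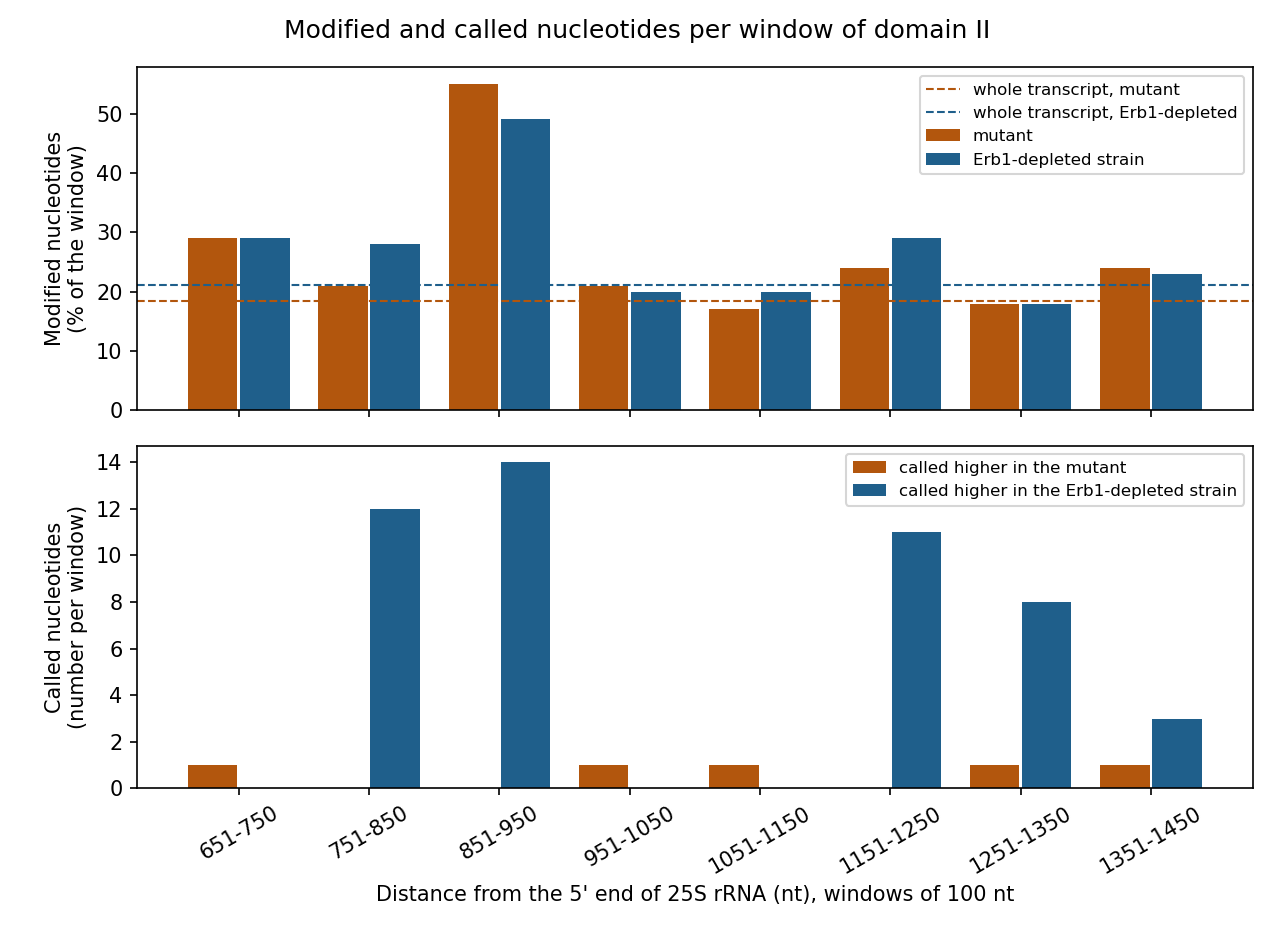
Share of modified nucleotides (%) per window of 100 nt (top, dashed lines for the whole transcript) and number of called nucleotides per window in each direction (bottom) along 25S 651 to 1450. The window 851 to 950 holds the most modified nucleotides in both strains, 55 and 49, and on the deposited scale the most calls higher under Erb1 depletion, 14.

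The longest run of nucleotides modified in both strains was 706 to 716, 11 nt with mean normalized scores of 0.532 and 0.582. It was followed by 909 to 917, 9 nt with 0.546 and 0.813, and 879 to 886, 8 nt with 0.537 and 0.615. The longest runs with no modified nucleotide in either strain were 1066 to 1095 (30 nt) and 1035 to 1061 (27 nt). Both lie in the span 1004 to 1124 taken for the A-site finger, on either side of the short reactive stretch around A1062 and A1065. Their mean normalized scores were 0.0326 and 0.0350 in the mutant and 0.0270 and 0.0134 under Erb1 depletion. Next came 2 runs of 24 nt. The run 737 to 760 had means of 0.0143 and 0.00315, and 968 to 991, which was higher under Erb1 depletion, 0.0645 and 0.148.

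Adenosines were the base most often modified. In the mutant 104 of 217 adenosines (47.9%) were modified, 49 of 190 uridines (25.8%), 42 of 237 guanosines (17.7%) and 14 of 156 cytidines (8.97%). The Erb1-depleted strain had the same order, with 48.8%, 28.4%, 19% and 7.05%. Adenosines made up 49.8% and 49.1% of the modified nucleotides against 27.1% of the bases of domain II. In the rest of 25S 32.3% and 37% of adenosines were modified, so the higher share of domain II was seen within one base as well. Guanosines were the base whose mean normalized score differed most between the strains, 0.122 in the mutant against 0.217 under Erb1 depletion, and the rest of 25S had nearly the same pair of means, 0.129 and 0.211. Adenosines averaged 0.415 and 0.420, and uridines 0.221 and 0.222.

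Of the 10 most reactive modified nucleotides of each strain, taken at most 1 per 5 nt, U935, A1065, A1129 and A951 were on both lists. U935 had the highest normalized score, 1.73 in the mutant and 1.69 under Erb1 depletion, within the run 932 to 936 that averaged 1.24 and 1.29. A1065 had 1.72 in the mutant and 1.21 under Erb1 depletion. A1399 had 1.70 and 1.13, and U1028, in the apical loop of the A-site finger, 1.51 and 1.11. These 3 had the widest gaps among the 10 most reactive nucleotides of the mutant, all toward the mutant. None was called by the rule described below on the deposited scale. A1065 was called higher in the mutant on each strain's own normalization factor (standardized difference 1.03), at equal SD (1.05) and with negatives at 0 (1.69), and A1399 with negatives at 0 (1.47). A1129 (1.43 and 1.44), A951 (1.42 and 1.36), A691 (1.40 and 1.27) and A925 (1.36 and 1.16) lay closer together. U1305 had 1.42 and 1.20, and G940 1.37 and 1.19. In the Erb1-depleted strain U935 was followed by A1025 at 1.46, which had 1.49 in the mutant. A690 (1.35 in the mutant and 1.34 under Erb1 depletion) and A967 (1.30 and 1.32) also had close scores. G912 (0.699 and 1.27), A1373 (0.363 and 1.24) and G1152 (0.914 and 1.24) were among the leading nucleotides under Erb1 depletion only, and A1373 was not modified in the mutant.

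Hairpins were looked for in the sequence as stems of at least 5 pairs, G-U included, that close a loop of 4 to 8 nt. The search found 15, which cover 252 nt, or 1.88 hairpins per 100 nt against 2.35 in the rest of 25S, where 61 were found. They are matches of letters and not a known structure. Loops were more reactive than stems in 10 of 15 hairpins in the mutant and in 12 under Erb1 depletion. Of the 84 loop nucleotides 26 were modified in the mutant (31%) and 29 under Erb1 depletion (34.5%). Of the 168 stem nucleotides 13 (7.74%) and 17 (10.1%) were modified. The gap was wider than in the hairpins of the rest of 25S, with 24.3% and 24.6% in loops and 14.5% and 15.6% in stems.

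Loops are in capitals in these hairpins, the first 3 with the most reactive loops, the next a GNRA tetraloop (N is any base, R is A or G), and the last an exception.
25S 683 to 697: tgggtGTAAAaccca
25S 1017 to 1035: cggggtcGAAATgaccttg
25S 1122 to 1136: ttttgGTAAGcagaa
25S 838 to 855: gccagagGAAActctggt
25S 766 to 781: ttcggaTGGAtttgag
The loop of the first averaged 0.991 in the mutant and 1.02 under Erb1 depletion, and its stem 0.122 and 0.0651. The loop at 1024 to 1028 averaged 0.976 and 0.896, and that at 1127 to 1131 0.886 and 1.03. These loops are reactive in both strains to a similar degree. GNRA tetraloops are a compact fold in which the first and last bases pair side by side. Such loops ended 2 of the 15 hairpins found in domain II and 0 of the 61 found in the rest of 25S. GNRA loops closed by shorter stems or by other kinds of pairs were not searched for. The counts therefore do not show how common GNRA tetraloops are in domain II or elsewhere in 25S. The GAAA loop at 845 to 848 averaged 0.280 and 0.285, and the GCAA loop at 733 to 736 averaged 0.452 and 0.464. In both loops the first G was modified in neither strain and the middle pair of nucleotides was modified in both. The last hairpin went the other way, with a loop at 0 in both strains and a stem that averaged 0.172 and 0.239.

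The span taken for the A-site finger, the 121 nt from 1004 to 1124, was bounded by pseudouridine positions and not by a structure. The loop 1024 to 1028 lies near its 5′ end, so the span need not match the bounds of the helix. It is called the finger below. It had 17 modified nucleotides in each strain (14%), against 17.1% in the mutant and 19.2% under Erb1 depletion in the rest of 25S. Its mean normalized score was 0.189 in the mutant, near the 0.192 of the rest of 25S, and 0.153 under Erb1 depletion, below 0.218. The apical loop 1024 to 1028 was modified at A1025, with scores of 1.49 and 1.46, A1026 with 0.726 and 0.811, and A1027 with 0.790 and 0.651. A1062, A1064 and A1065 had 0.916, 0.718 and 1.72 in the mutant against 0.461, 0.335 and 1.21 under Erb1 depletion. All 3 had higher scores in the mutant and were not called on the deposited scale. The standardized difference starts from the smoothed raw score of the mutant minus that of the Erb1-depleted strain. The mean of that difference along the transcript is taken off, and the rest is divided by its SD. The sign of the standardized difference is thus relative to the transcript mean. In the finger the standardized difference averaged 0.48. It was positive at 88 and negative at 33 of the 121 nucleotides. However, 80 of them in the mutant and 82 under Erb1 depletion had a normalized score of 0, and 98 were modified in neither strain. At many positions the sign thus compares raw scores that are not above 0. On the 5 other scales described below the mean standardized difference of the finger was lower, between 0.25 and 0.32. Calls in the finger depended on the scale too. The deposited scale gave 1 call toward the mutant and 0 toward Erb1 depletion, as did quantile normalization. The strains' own factors gave 3 and 0, and so did equal SD. There were 7 and 4 on normalized scores with negatives at 0, and 1 and 7 with the running median taken out.

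**Figure D3:**
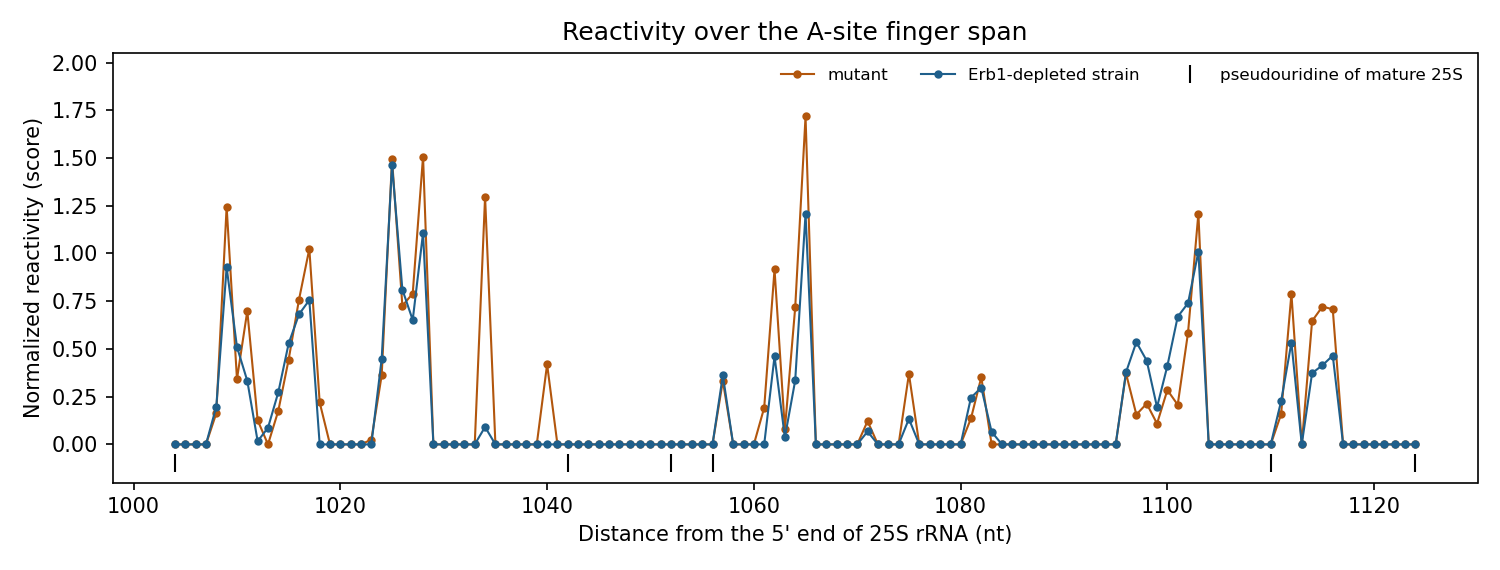
Normalized reactivity score (no unit) over the span taken for the A-site finger, 25S 1004 to 1124, in the mutant and under Erb1 depletion, with pseudouridine positions marked. The peaks at A1025, U1028 and A1065 stand out in both strains, U1034 in the mutant only (1.30 against 0.0913), and the pseudouridines lie at or near 0.

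Bases that are modified in mature 25S were set against the other nucleotides. All 24 listed sites, 13 ribose methylations and 11 pseudouridines placed by small nucleolar RNAs, fell on the right base. A 2′-O-methyl group takes the place of the hydroxyl that 1M7 attacks. Of the 13 ribose-methylated sites 11 in the mutant and 8 under Erb1 depletion had a normalized score of 0. A score of 0 was also common at the other 787 nucleotides, with 432 in the mutant and 388 under Erb1 depletion. The mean of the 13 sites was 0.0615 and 0.109, against 0.215 and 0.247 at the other nucleotides. The exception was G1142, with 0.655 in the mutant and 0.957 under Erb1 depletion and modified in both. A807 had 0 in the mutant and 0.184 under Erb1 depletion, where it was counted as modified. The nucleotides just 5′ of the 13 methylated sites had as many modified as the sites, 1 and 2, with means of 0.0962 and 0.193. Those just 3′, of which 12 lie in domain II, had 5 and 4 modified and means of 0.238 and 0.269. Of the 11 pseudouridine sites 10 had a normalized score of 0 in both strains, against 97 and 92 of the other 179 uridines. The one above 0 was position 966, with 0.498 and 0.496, counted as modified under Erb1 depletion only. Of the other uridines 49 (27.4%) and 53 (29.6%) were modified, with means of 0.232 and 0.233 against 0.0453 and 0.0451 at the pseudouridine sites. Just 5′ of the pseudouridine sites 9 of 11 nucleotides had a score of 0 in each strain. Just 3′ of them 6 did in the mutant and 5 under Erb1 depletion. Low scores were thus not confined to the listed sites. How many of the listed bases are already altered in the purified 35S pre-rRNA was not tested.

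The strains were then compared directly. A difference was called where the Z-factor was above 0, the standardized difference was at least 1 in size, 3 or more positions within 5 nt did so together, and the nucleotide was modified in at least 1 strain. By this rule 48 nucleotides of domain II (6%) were called higher under Erb1 depletion, against 5.15% of the whole transcript, and 5 (0.625%) were called higher in the mutant, against 0.81%. Both shares are near those of the whole transcript, so neither their number nor their direction is particular to domain II. The rest of 25S had 4.61% and 0.56%. The split depends on the scale. The SD of the raw scores in domain II was 0.149 under Erb1 depletion and 0.117 in the mutant. Calls higher in the mutant made up 9.43% of the 53, but 25.4% (16 against 47) on normalized scores with negatives at 0 and 47.5% (75 against 83) with nucleotides modified in neither strain included.

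**Figure D4:**
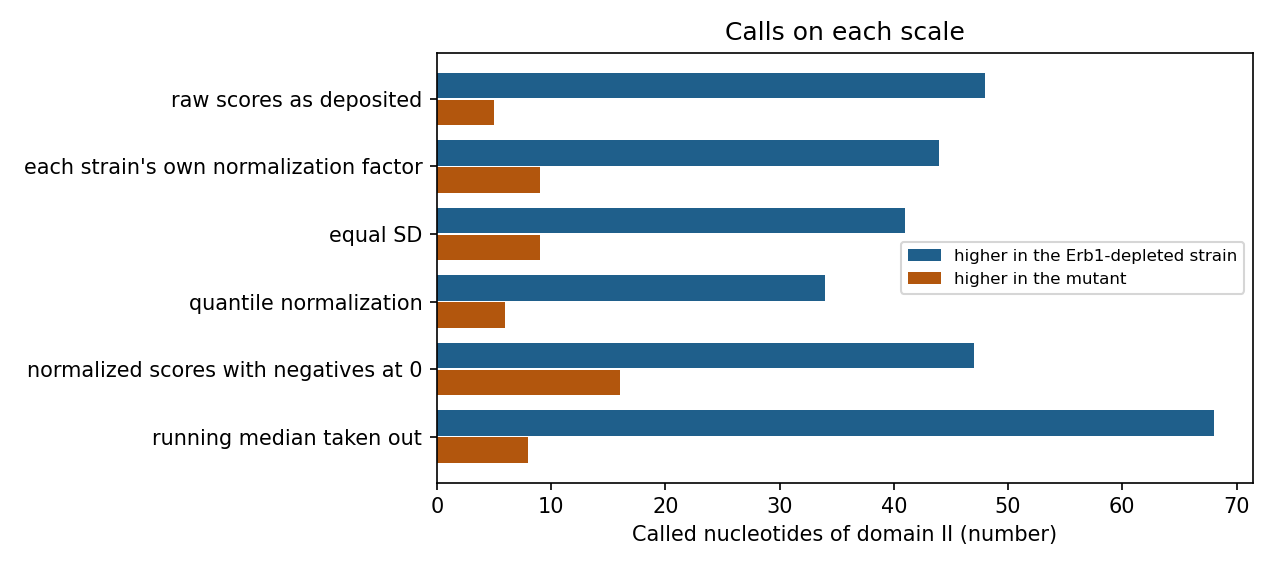
Nucleotides of domain II called higher in the mutant and higher under Erb1 depletion on the deposited scale and on 5 other scales. The numbers higher in the mutant lie between 5 and 16 and those higher under Erb1 depletion between 34 and 68, so the second is larger on every scale drawn.

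Of the 48 nucleotides called higher under Erb1 depletion, 25 were modified in both strains and 23 under Erb1 depletion only. They comprised 26 adenosines, 13 guanosines, 8 uridines and 1 cytidine, and 10 had a normalized score of 0 in the mutant. Their standardized differences ran from 1.01 to 2.23 in size. A1369 was the 1 nucleotide of the 48 with a lower normalized score under Erb1 depletion, 1.08 against 1.29. Calls rest on raw scores smoothed over 3 nt, so the scores of neighbouring nucleotides enter them. Each strain also has its own normalization factor. Calls fell into 24 runs of adjacent nucleotides, of which 13 were single nucleotides, 6 had 2 or 3 and 5 had at least 4. All 5 longer runs were higher under Erb1 depletion, and their sequences are printed above.

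The run 825 to 830, TGAATA, differed most of these in modified nucleotides. It averaged 0.2 in the mutant and 0.612 under Erb1 depletion, with 1 of 6 against 6 of 6 nucleotides modified. G826 had 0.263 and 0.891, A827 0.0678 and 0.549, A828 0 and 0.303, U829 0 and 0.407, and A830 0.620 and 0.923. These 5 nucleotides are the whole loop of the hairpin found at 821 to 835, whose stem averaged 0.0480 and 0.148. The loop was thus mostly unreactive in the mutant and reactive throughout under Erb1 depletion, unlike the other hairpin loops shown.

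In the window with the most modified nucleotides, the run 910 to 915, GCGAAA, averaged 0.593 in the mutant and 0.911 under Erb1 depletion. All 6 nucleotides were modified in both strains. G912 had 0.699 and 1.27, C911 0.384 and 0.904, and A913 0.546 and 0.99, whereas A915 had 0.821 and 0.839. Just upstream, G901, G902, A904 and U905 had 0.171, 0, 0 and 0 in the mutant against 0.592, 0.427, 0.421 and 0.371 under Erb1 depletion. A906 had 0.697 and 0.887. Further upstream U865, in a called run of 3, had 0.758 and 1.12. The strains therefore differed here both at nucleotides reactive in each of them and at nucleotides at or near 0 in the mutant.

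**Figure D5:**
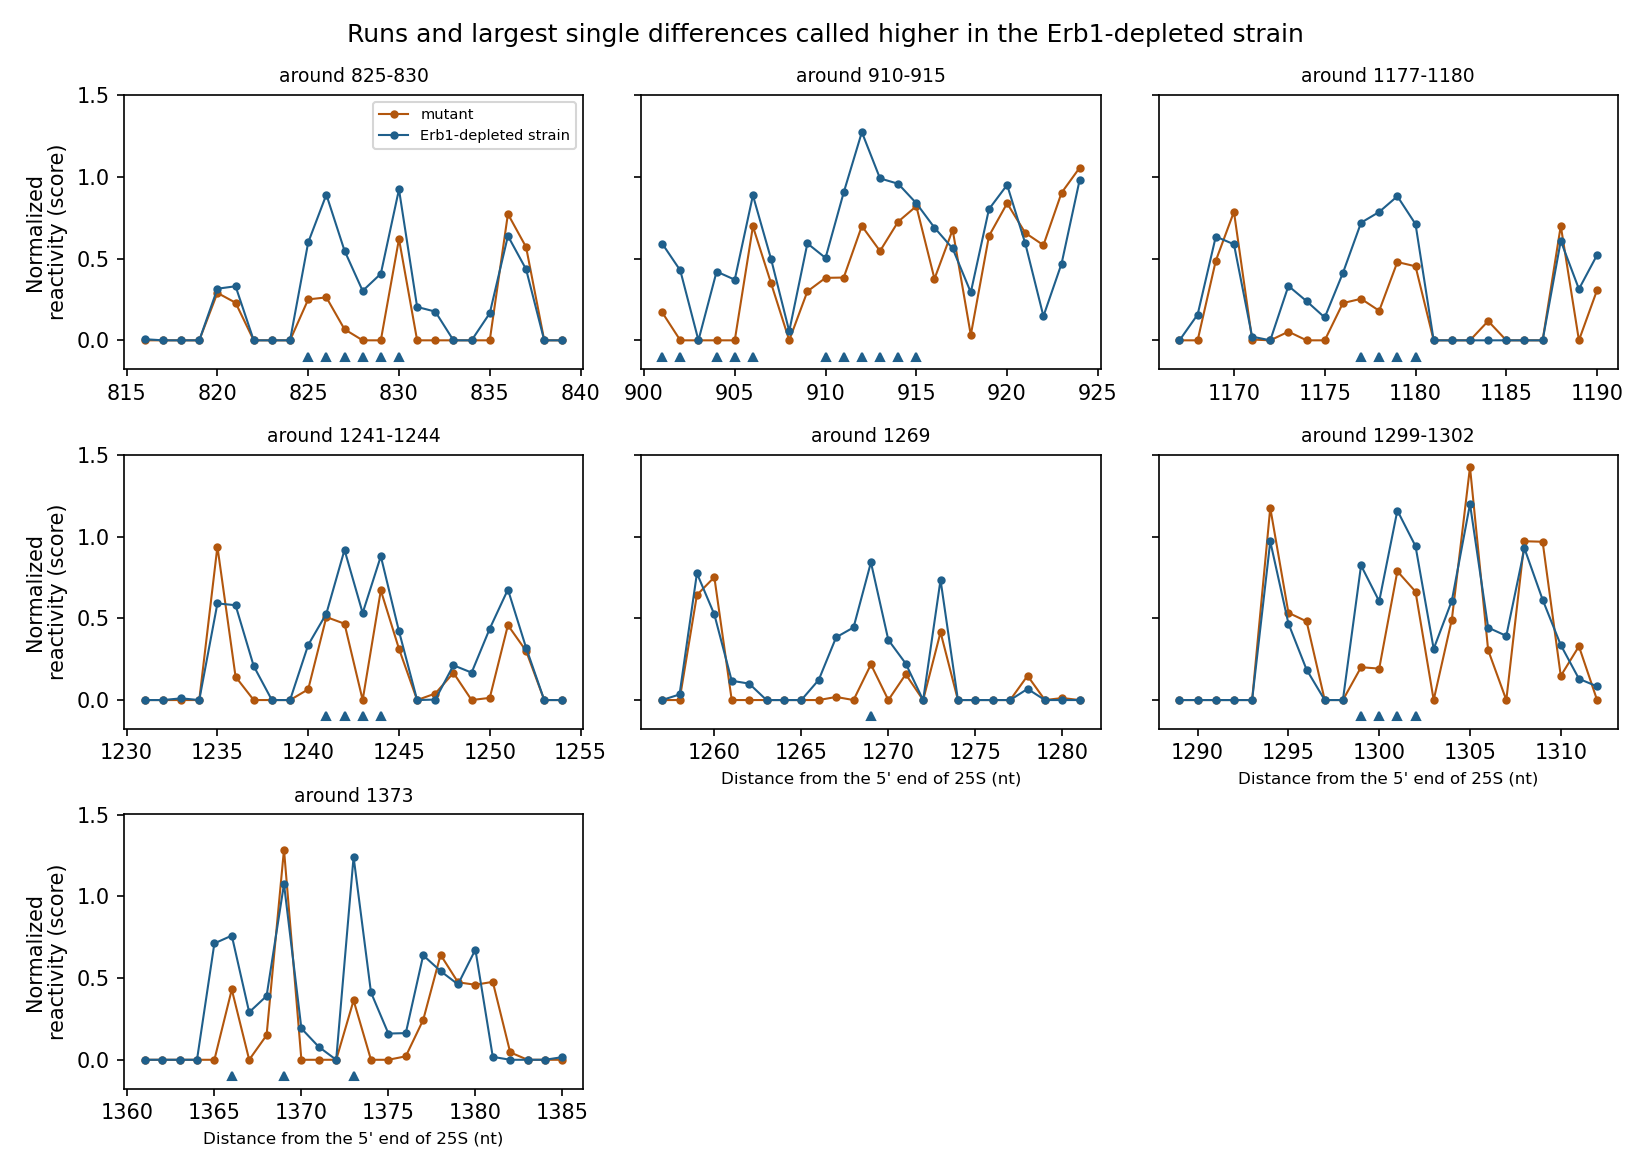
Normalized reactivity score (no unit) against the distance from the 5′ end of 25S (nt) for both strains, around the 5 runs of at least 4 called nucleotides and around U1269 and A1373, with triangles at called nucleotides. The Erb1-depleted strain has the higher mean across each run, with 0.612, 0.911, 0.774, 0.715 and 0.882 against 0.2, 0.593, 0.342, 0.411 and 0.461.

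Downstream of the A-site finger the run 1177 to 1180, GGAA, averaged 0.342 in the mutant and 0.774 under Erb1 depletion, with 2 of 4 against 4 of 4 modified. G1178 had 0.181 and 0.785. The run 1299 to 1302, TGAA, overlaps the end of the stretch taken below as the GTPase-associated centre, and it averaged 0.461 and 0.882. U1299 had 0.201 and 0.823, and G1300 0.192 and 0.604. Near the 3′ end, A1373 had the largest standardized difference among the called nucleotides, −2.23, with normalized scores of 0.363 and 1.24. It was modified under Erb1 depletion only, where its posterior, 0.957, lay just past the threshold. A1366 had −2.03, with 0.430 and 0.759, and its posterior in the mutant, 0.947, fell just short of the threshold.

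The GTPase-associated centre was taken with its flanks as the 101 nt from 1200 to 1300. In it 18 nucleotides were modified in the mutant (17.8%) and 19 under Erb1 depletion (18.8%), against 18.5% and 21.1% over the whole transcript. The mean normalized score was 0.127 in the mutant and 0.204 under Erb1 depletion. Called higher under Erb1 depletion were 8 nucleotides (7.92%), against 5.15% over the whole transcript, and called higher in the mutant 0, against 0.81%. U1241, G1242, G1243 and A1244 form the run in the first hairpin loop, where the bacterial counterpart binds the antibiotic thiostrepton. G1242 had 0.467 in the mutant and 0.919 under Erb1 depletion, and G1243 had 0 and 0.532. U1241 had 0.508 and 0.529, and A1244 0.671 and 0.880. The guanosines thus differed more than the uridine before them. In the second hairpin, U1269 had the next largest standardized difference among called nucleotides after A1373, −2.19, with 0.218 and 0.842, and was modified under Erb1 depletion only. A1286, between the hairpins and the run at 1299, had 0.579 and 0.837 and was also called. Other reactive nucleotides of the centre did not go that way, such as U1235 with 0.939 and 0.591 and A1260 with 0.752 and 0.524. The mean standardized difference of the centre was −0.47, and with a running median of 50 nt on either side taken out it was −0.01, with 3 nucleotides called. That median spans a stretch as long as the centre, so taking it out draws the mean of the centre toward 0 by construction. 

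The 5 nucleotides called higher in the mutant were scattered single positions, all modified in the mutant only. U1034, at the foot of the apical hairpin of the A-site finger, had 1.30 in the mutant and 0.0913 under Erb1 depletion, with a standardized difference of 1.37. A693 had 0.259 and 0, and U1138 0.419 and 0. C1338 had 0.491 and 0.0173, and U1427 0.288 and 0.0135. The standardized differences of the other 4, 1.01 to 1.06, lay just past the threshold, and U1034 was the single one called on all 4 of the other scales.

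The calls were weighed against 4 other scales, which were each strain's own normalization factor, equal SD, quantile normalization and normalized scores with negatives at 0. Of the 48 nucleotides higher under Erb1 depletion 28 were called on all 4. With the running median taken out as well, 24 were called each time. They include 5 of the 6 nucleotides of the run 825 to 830, C911, G912 and A913 of the run 910 to 915, all of the runs 1177 to 1180 and 1299 to 1302, and G901, G902, A904, U905, U1269, A1317, A1366 and A1373. The run 1241 to 1244 of the GTPase-associated centre is not among them. Between 37 and 47 nucleotides were called both on the deposited scale and on any 1 of these 5, and all of them went the same way. The order of windows by these calls also moved. The window 851 to 950 had 11 against 12 in 751 to 850 with the strains' own factors, 11 in both 851 to 950 and 1151 to 1250 at equal SD, and 9 against 17 in 651 to 750 with the running median taken out. A threshold of 2 instead of 1 left 0 calls in either direction, since no window of 5 nt held 3 such nucleotides.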

How the data were processed

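All values come from 1 sheet with a line per nucleotide and a column per strain. The deposited values are scores, per the file headers: a raw SHAPE reactivity score, a normalized one, a BUM_HMM posterior probability, smoothed scores, a Z-factor and a standardized difference. Per the submitters' processing notes, the aligner was Novoalign. Its version and the genome build are not given in the sources used here. A note in the sheet describes normalized scores as 2% to 8% normalized and marks positions of insufficient coverage, of which domain II has none. In the values they are the raw score times 5.21 (mutant) or 4.35 (Erb1-depleted), with negatives at 0. The sources do not say which control libraries entered the scores for Erb1 depletion. The 6 libraries form 3 groups of 2, and they are not told apart in the sheet, so the depth is unknown and no test was made. Counts of reads and stops were not analysed here.

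The call rule uses scores smoothed over 3 nt and an SD of 0.0649. Recomputed over the whole transcript it gave 1646 calls, 390 of them at modified nucleotides, and 0 differed from the authors' deposited table. In domain II the Z-factor was not above 0 at 4 nucleotides. The rule was run on simulated differences, with shifted segments in noise that was independent between nucleotides. Modification was left aside and every Z-factor taken as passing, so the calls at modified nucleotides were not tested. The rule divides a difference by the SD of all differences, so calls in noise without any shift were bound to arise in the simulation. For the same reason a number of calls is no measure of how far the strains differ. Domain bounds, spans, lists of modified bases and settings were chosen with earlier results of these data known. The nucleotides named by rule are the 10 most reactive modified ones of each strain and the 10 largest differences called higher under Erb1 depletion, at most 1 per 5 nt, every one called higher in the mutant, and runs of at least 4 by their ends and largest value. Others in runs, loops or spans were named after their values were seen. Scripts used Python 3.11.15, numpy 2.4.6, pandas 2.3.3, scipy 1.17.1 and matplotlib 3.10.9.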

Additional observations from a re-analysis of the deposited data

How the results depend on the processing

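No paired analysis was possible because the sheet pools the libraries of a strain, and leaving out a replicate was not possible for the same reason. Counts of modified nucleotides stayed within 1.5 times at posteriors of 0.9 and 0.99. Calls higher in the mutant, 5 as reported, were 3 at a posterior of 0.99, 9 on each strain's own normalization factor, 9 at equal SD, 16 on normalized scores with negatives at 0, 8 with the running median taken out, 75 without the filter on modification and 0 at a threshold of 2 or where both strains had to be modified. Calls higher in the Erb1-depleted strain, 48 as reported, were 0 at a threshold of 2, 83 without the filter and 25 where both strains had to be modified. These last 3 settings change how many nucleotides can pass by their construction. The mean standardized difference of domain II was −0.0553, −0.134 with negatives at 0 and 0.0502 with the running median taken out. That of the window 1251 to 1350 turned to 0.135 under the running median, with negatives at 0 that of 1351 to 1450 turned to −0.0925, and after quantile normalization that of the pseudouridine sites turned to −0.00297. The running median spans about the length of a window, so taking it out draws the means of windows toward 0 by construction. Why these signs turned was not tested. Without read numbers, no value can be weighed by its depth.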
